A study of Mus musculus with 2 samples.

Results

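Cholesterol and fatty acid metabolism was followed through 40 genes, all of which were found by gene symbol among the 27179 genes counted in the series. They were chosen by role from general knowledge of lipid metabolism, with earlier results of these data known. The roles are 5 genes of the SREBP machinery, 18 enzymes of sterol synthesis, 5 genes of sterol efflux and its regulators, 1 sterol carrier, 10 genes of fatty acid synthesis, elongation and desaturation, and 1 gene of fatty acid oxidation.

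The cells came from ALL65, a T-ALL (acute lymphoblastic leukaemia of T cells) that arose in a mouse of genotype Vav-tTA;TRE-GFP-shIkaros. In this model the haematopoietic Vav promoter drives a tetracycline transactivator, which switches on a short hairpin RNA against Ikaros (gene Ikzf1) together with green fluorescent protein (GFP), and doxycycline (Dox) switches both off. Both groups carried the transgenes and the same leukaemia, which is 1 tumour, and were taken by flow sorting from the spleen of recipient mice as GFP-high cells without treatment or GFP-mid cells after 3 days of Dox. Each group had 1 library, which the series' design text relates to 3 mice and 2 sequencing runs, so no test was possible and no value below has a replicate error. Treatment and sort gate cannot be told apart. The sources used here do not give the age, sex or strain of the mice.

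The libraries held 7477988 counts (untreated) and 14457475 counts (Dox). Levels are given as CPM, the counts scaled to library size, or, where genes are compared with each other, as TPM, which is also divided by gene length. Ratios are log2 of Dox over untreated with a prior count of 2, and the bounds after them are exact 95% Clopper-Pearson counting intervals, which hold no variation between mice. Ikzf1 itself stood at 262 CPM untreated and 1455 CPM with Dox. All 7 T cell markers passed 5 CPM. Of 51 markers of other cell types found in the table, 41 had a mean under 1 CPM. Lipid-rich liver and fat cells left almost no trace, since Alb, Fabp4 and Lpl had 0 counts in both libraries, Apoa1 had 1 and 0, and Adipoq had 1 and 8. Of 15 macrophage and other myeloid markers 12 had a mean under 1 CPM, and the list summed to 163 and 361 counts, or 21.4 and 25.4 CPM. The 3 others pointed apart, with Lyz2 at 55 and 24 counts and a ratio of -1.99, Itgam at 64 and 209 and 0.79, and Cd68 at 25 and 88 and 0.88. The only other markers past 5 CPM, from the stromal and endothelial list, were Pecam1 at 159 and 205 CPM, Col1a2 at 165 and 112 CPM and Pdgfrb at 35.3 and 10.5 CPM. Of these 6 markers 2 were past 1.5-fold in each direction, while Cdh5, Kdr and Col3a1 of the same stromal and endothelial list had 0 counts in both libraries. Their part in the members' ratios was not tested.

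Cells make cholesterol from acetyl-CoA through the mevalonate pathway and squalene. When sterols in the endoplasmic reticulum are scarce, the escort protein Scap carries the SREBP transcription factors to the Golgi, where they are cut and released to switch on genes of sterol and fatty acid synthesis, and Insig proteins hold Scap back when sterols suffice. Surplus cholesterol gives rise to oxysterols, which activate the liver X receptors (LXR) and with them the efflux pumps Abca1 and Abcg1. Dividing lymphocytes are known to draw on both branches of synthesis for membranes, and on the carnitine shuttle when they oxidise fatty acids.

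SREBPs bind sterol response elements in promoters, often beside sites of the factor NF-Y. The RefSeq promoter table (GRCm38.p6, the assembly behind mm10) held windows of 300 bases, from 250 before to 50 after the start, for 32 of the 40 members. The sterol response element was searched on both strands as TCACNCCAC and the NF-Y box as CCAAT, which reads ATTGG on the other strand. The first was found in 1 of 32 members, Hmgcs1, and in 1.44% of all 27025 genes of the table. Elements that differ from these letters, or lie outside the windows, were not searched. Fdps, Fdft1, Sqle, Stard4, Abcg1, Scd1, Scd2 and Fads1 had no window. The NF-Y box was found in 24 of 32 members and in 14 of the 15 sterol synthesis genes with a window, against 41.1% of all genes. All genes here include those silent in these cells, and no background matched for level was drawn. The exception among the 15 was Acat2. Of the 7 fatty acid synthesis genes with a window, 4 held it. A tandem repeat of AGGTCA with a spacer of 4 bases, the form that LXR prefers, was found in 0 of 32 members and in 0.0148% of all genes. The core letters of Ikaros sites, TGGGAA, were found in 11 of 32 members and 28.3% of all genes, the GC box GGGCGG in 25 and 38.2%, and the E-box CACGTG in 7 and 8.09%. Fads2 holds TGGGAA from -156 to -151, and the Cpt1a window, which lies inside the gene, does not hold it. These matches describe letters and are no evidence of binding.

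The 250 bases before an annotated start are shown for 4 members. Hmgcs1 was the only member with a window that matched the letters searched for the sterol response element. Mvd was the sterol synthesis gene with the largest ratio, and Cpt1a and Fads2 were the members with the largest ratios in each direction. Hmgcs1 lies on the plus strand at chr13:119690101-119690350, Mvd on the minus strand at chr8:122443423-122443672, Cpt1a on the plus strand at chr19:3323051-3323300 and Fads2 on the minus strand at chr19:10101504-10101753. The Cpt1a stretch lies inside the gene, which begins at 3322326, and so precedes a later start. The bases before that first position were neither searched nor shown. Capitals mark sterol response elements and NF-Y boxes.
Hmgcs1: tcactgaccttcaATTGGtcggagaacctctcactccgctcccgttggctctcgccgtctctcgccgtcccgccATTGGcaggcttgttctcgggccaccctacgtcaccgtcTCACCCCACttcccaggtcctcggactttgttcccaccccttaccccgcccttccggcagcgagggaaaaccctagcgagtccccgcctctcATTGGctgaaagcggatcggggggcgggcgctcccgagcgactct
Mvd: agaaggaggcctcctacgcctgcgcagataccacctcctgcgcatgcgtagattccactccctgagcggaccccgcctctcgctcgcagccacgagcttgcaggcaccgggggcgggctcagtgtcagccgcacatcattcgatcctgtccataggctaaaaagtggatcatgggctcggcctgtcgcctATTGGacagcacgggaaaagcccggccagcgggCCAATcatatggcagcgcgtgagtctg
Cpt1a: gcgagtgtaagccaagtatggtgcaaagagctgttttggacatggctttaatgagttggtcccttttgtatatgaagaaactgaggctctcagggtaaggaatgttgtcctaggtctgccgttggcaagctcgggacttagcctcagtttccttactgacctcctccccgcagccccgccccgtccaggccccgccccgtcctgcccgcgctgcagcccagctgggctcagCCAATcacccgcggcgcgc
Fads2: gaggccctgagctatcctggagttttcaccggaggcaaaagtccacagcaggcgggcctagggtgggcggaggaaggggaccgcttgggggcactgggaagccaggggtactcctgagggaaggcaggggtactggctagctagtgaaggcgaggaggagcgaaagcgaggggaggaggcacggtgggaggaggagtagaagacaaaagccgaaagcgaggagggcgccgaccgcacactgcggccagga
The sterol response element of Hmgcs1, TCACCCCAC, lies from base -137 to base -129, counted back from -1 just before the start, between NF-Y boxes that begin at -176 and -45, with no overlap. Mvd has NF-Y boxes that begin at -60 and -27, and Cpt1a has 1 that begins at -19. The Fads2 stretch holds neither motif, and these letters were also not found in the 50 bases after its start.

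Only 3 members passed a size rule, a 1.5-fold difference and a minimum of 5 CPM in whichever library was higher, and the same 3 were past 2-fold. Cpt1a stood higher with Dox, while Fads2 and Scd1 stood lower. They were 1 higher and 2 lower among the 38 members past 5 CPM, or 2.63% and 5.26%. Over all 10113 genes past that minimum, 6.28% stood 1.5-fold or more above and 6.18% 1.5-fold or more below the untreated library, and 2.21% and 2.24% did so by 2-fold or more. At 1.5-fold the members' shares lie under this background. At 2-fold they lie above it, by 1 gene higher and 2 lower of 38, which is too few to read. The counting interval lay wholly above 0 for 4 members and wholly below 0 for 14. These are 10.5% and 36.8% of the 38, against 26.9% and 23.8% of all genes, shares not matched for level. Both sides together held 47.4% of the members and 50.7% of all genes. The median ratio of the 39 members with a mean of at least 1 CPM was -0.12, with quartiles of -0.26 and 0.09. The median over the 11498 genes past the same minimum was 0.01, with quartiles of -0.20 and 0.22.

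**Figure D1:**
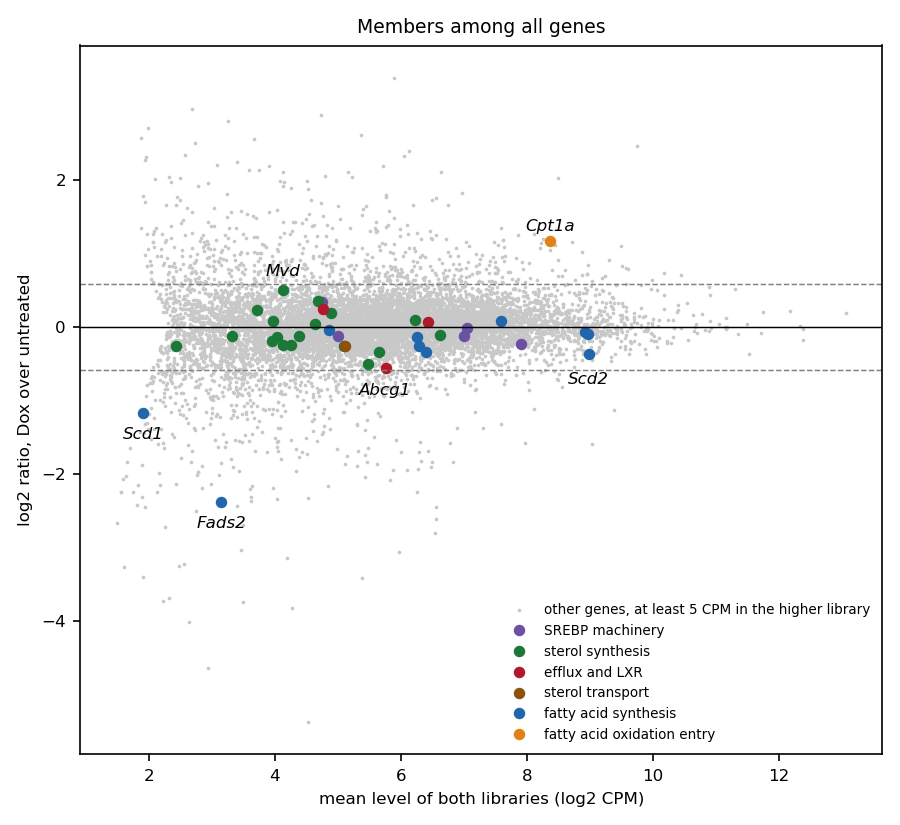
Log2 ratio of Dox over untreated (y axis) against mean level in log2 CPM (x axis), 1 library per group. Grey points are the other genes past the 5 CPM minimum and coloured points the 38 members past it, by role; dashed lines mark 1.5-fold. Cpt1a stands above the upper line, Fads2 and Scd1 stand below the lower one, and the other 35 members lie between the lines.

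Cpt1a encodes the liver form of carnitine palmitoyltransferase, the outer mitochondrial enzyme that commits long-chain fatty acids to oxidation. The gene (Entrez Gene 12894) lies on chromosome 19 from 3322326 to 3385735 in mm10 and overlapped no other counted gene. It had 1548 untreated and 6534 Dox counts, or 204 and 459 CPM. The Dox level was above the untreated one by 2.25-fold, a log2 ratio of 1.17 (1.09 to 1.25). In sorted cells measured in bulk, more cells with the transcript and more transcript per cell cannot be told apart. This ratio was the 149th highest of the 10113 genes past 5 CPM. Of the 504 genes at least as abundant in the mean of both libraries, 3 had a ratio as large, Cpt1a included. Its other forms, Cpt1b with 1 and 3 counts and Cpt1c with 4 and 4, were close to absent.

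Fads2 encodes a fatty acid desaturase at the entry of polyunsaturated fatty acid synthesis. It had 114 untreated and 39 Dox counts, or 15.0 and 2.74 CPM. The Dox level was below the untreated one by 5.19-fold, a log2 ratio of -2.38 (-3.02 to -1.92), which is the 26th lowest of the 10113 genes. Of the 9221 genes at least as abundant in the mean of both libraries, 13 had a ratio as low, Fads2 included. Its neighbour Fads1, the next desaturase of the same route, lies 81373 bases away on chromosome 19. Fads1 had 715 and 1054 counts, or 94.1 and 74.1 CPM, and a smaller ratio of -0.34 (-0.48 to -0.21). The third gene of the cluster, Fads3, had 0 counts in both libraries, which allows up to 0.395 CPM untreated and 0.211 CPM with Dox. Per length, Fads1 stood at 60.4 TPM and Fads2 at 22.1 TPM without Dox, and at 46.4 and 3.94 TPM with it, so that the level of Fads1 over that of Fads2 was 2.73-fold and 11.8-fold. The deposited length of Fads2 was 1508 bases, against 3295 bases for the union of its exons in GENCODE, so its level per length depends on the gene model. The length cancels in the ratio between libraries. Whether counting over other exons would change that ratio was not tested.

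The stearoyl-CoA desaturases, which make monounsaturated fatty acids, showed the same order of sizes. Scd2, the form that dominates in these cells, had 4338 and 6298 counts, 571 and 443 CPM, and a ratio of -0.37 (-0.42 to -0.31). Scd1, the main form of liver and fat, had 40 and 32 counts, 5.26 and 2.25 CPM, and a ratio of -1.16 (-1.94 to -0.52). Scd1 was 2.24-fold lower in the Dox library but lies just past the CPM minimum, and the bound of its interval nearest to 0 is under 1.5-fold. Per length, Scd2 stood at 232 and 176 TPM and Scd1 at 2.42 and 1.01 TPM. Both genes lie on chromosome 19, with 87585 bases between them. They are related in sequence, and the sources used here do not say how reads shared between related genes were counted.

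The remaining fatty acid genes had small ratios. Acly, which supplies cytosolic acetyl-CoA from citrate, stood at 500 and 476 CPM, a ratio of -0.07 (-0.13 to -0.01). Fasn, the fatty acid synthase, stood at 517 and 485 CPM, a ratio of -0.09 (-0.15 to -0.04). Acaca, the carboxylase that makes malonyl-CoA, an inhibitor of the enzyme encoded by Cpt1a, stood at 80.0 and 73.0 CPM, a ratio of -0.13 (-0.28 to 0.01). All 3 were marginally lower in the Dox library, and the interval of Acaca spans 0.

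Among the elongases, Elovl6, which extends palmitate, stood at 85.1 and 71.3 CPM, a ratio of -0.26 (-0.40 to -0.11). Elovl5, an elongase of polyunsaturated fatty acids, stood at 188 and 199.6 CPM, a ratio of 0.08 (-0.01 to 0.18). Elovl1, an elongase of very long saturated chains, stood at 29.6 and 28.8 CPM, a ratio of -0.04 (-0.28 to 0.20). Elovl6 alone of the 3 had an interval clear of 0. Of the 10 fatty acid synthesis genes 9 had a ratio below 0, 7 had an interval wholly below 0 and 0 had one wholly above it, while 2 were past 1.5-fold, both lower. Of the 11498 genes with a mean of at least 1 CPM, 5609 had a ratio below 0 and 5889 had one above it. Over all genes, 23.8% of intervals lay below 0 and 26.9% above it, and 6.18% were lower by 1.5-fold or more. These shares are not matched for level. An interval clears 0 more readily for abundant genes such as Fasn and Acly, whose ratios were small. The median ratio of the 10 genes was -0.19, and without Scd1 and Fads2 it was -0.11. Summed per length, the 10 genes stood at 919 TPM untreated and 798 TPM with Dox.

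Set beside each other per length, Cpt1a and Fasn stood in opposite order in the libraries. Cpt1a stood at 105 TPM and Fasn at 115 TPM in the untreated library, and at 231 and 106 TPM in the Dox library. Cpt1a over Fasn was thus 0.911 without Dox and 2.19 with it.

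**Figure D2:**
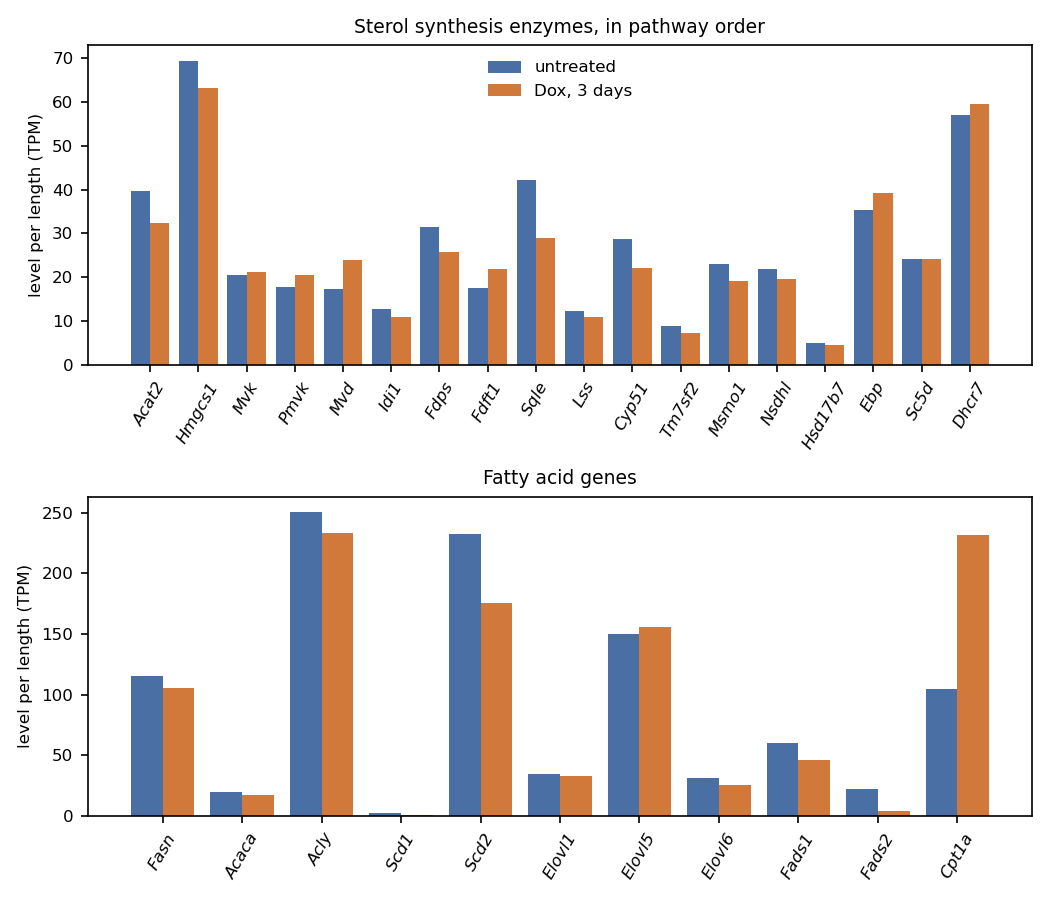
Level per length in TPM (y axes, starting at 0) of the sterol synthesis enzymes in pathway order (top) and of the fatty acid genes with Cpt1a (bottom), with 1 bar for the untreated and 1 for the Dox library and no error bars, since each group has 1 library. The sterol enzymes have log2 ratios between -0.51 and 0.51, while Cpt1a goes from 105 to 231 TPM and Fads2 from 22.1 to 3.94 TPM.

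In the SREBP machinery, 0 of 5 genes reached 1.5-fold, beside 6.28% of all genes upwards and 6.18% downwards. With 5 genes this count is too small to set apart from that background. Srebf2, whose product mainly serves sterol synthesis, had 1964 and 3140 counts, 258 and 221 CPM, and a ratio of -0.23 (-0.31 to -0.15). Srebf1, whose product mainly serves fatty acid synthesis, stood at 133 and 131 CPM, a ratio of -0.02 (-0.13 to 0.09). Per length Srebf2 was the more abundant in both libraries, at 126 and 105 TPM against 68.7 and 66.3 TPM. Scap stood at 133 and 122 CPM, a ratio of -0.12 (-0.24 to -0.01).

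The Insig genes differed in sign. Insig1, itself a target of SREBP, stood at 33.4 and 30.9 CPM, a ratio of -0.11 (-0.34 to 0.11). Insig2, the second anchor of this kind, stood at 23.8 and 30.2 CPM, a ratio of 0.34 (0.09 to 0.60). The interval of Insig1 spans 0 and that of Insig2 lies above it. Per deposited length, the level of Insig1 over that of Insig2 was 1.34-fold without Dox and 0.975-fold with it. The exon union in GENCODE was 1.17 times the deposited length for Insig1 and 1.38 times for Insig2, so their order with Dox depends on the gene model.

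The sterol synthesis genes had ratios of about the size seen over all genes, with a median absolute log2 ratio of 0.21 in both. All 18 passed 5 CPM in the higher library and 0 reached 1.5-fold, against 12.5% of all genes in either direction. With 18 genes this count is too small to set apart from that share. Ratios ranged from -0.51 to 0.51 with a median of -0.12, 11 below and 7 above 0. Over the 11498 genes with a mean of at least 1 CPM, 5609 lay below and 5889 above 0. For 13 of the 18 the counting interval spans 0. It lay clear of 0 for 27.8% of the 18, against 50.7% of all genes, shares not matched for level. Summed per length, they came to 485 TPM untreated and 455 TPM with Dox.

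The steps up to farnesyl diphosphate, which also feed isoprenoids, hold 7 of these genes. Hmgcs1, which condenses acetyl-CoA units at the head of the pathway, had 780 and 1360 counts, 103 and 95.6 CPM, and a ratio of -0.10 (-0.23 to 0.03). It was the most abundant of the 18 per length, at 69.4 and 63.1 TPM. Acat2, the cytosolic thiolase before it, stood at 37.1 and 31.1 CPM, a ratio of -0.25 (-0.47 to -0.04). The kinases Mvk and Pmvk had ratios of 0.09 (-0.24 to 0.42) and 0.23 (-0.12 to 0.61). Mvd, the decarboxylase that makes isopentenyl diphosphate, had 110 and 294 counts, 14.5 and 20.7 CPM, and the highest ratio of the pathway, 0.51 (0.19 to 0.84). Idi1, the isomerase, stood at -0.19 (-0.52 to 0.14), and Fdps, the farnesyl diphosphate synthase, at -0.24 (-0.54 to 0.05). Neighbouring steps thus carried ratios of opposite sign, and only those of Acat2 and Mvd exceed their counting error.

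The first committed steps to sterols also pointed apart. Fdft1, the squalene synthase, had 171 and 412 counts, 22.5 and 29.0 CPM, and a ratio of 0.36 (0.10 to 0.63). Sqle, the squalene epoxidase and a rate-limiting enzyme, had 397 and 522 counts, 52.2 and 36.7 CPM, and the lowest ratio of the pathway, -0.51 (-0.70 to -0.32). Fdft1 was 1.29-fold higher and Sqle 1.42-fold lower with Dox. Fdft1 overlaps Ctsb, a lysosomal protease gene with 1874 and 4725 counts, and the sources used here do not state a strand setting for the counting.

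After cyclisation by Lss, at -0.14 (-0.45 to 0.19), the demethylase Cyp51 stood at 56.4 and 44.6 CPM, a ratio of -0.34 (-0.52 to -0.16). The later enzymes had intervals that span 0. Tm7sf2, a sterol reductase, stood at -0.26, the C4 demethylation enzymes Msmo1, Nsdhl and Hsd17b7 at -0.24, -0.12 and -0.12, the isomerase Ebp at 0.19, the desaturase Sc5d at 0.04 and the last reductase, Dhcr7, at 0.10. By the deposited lengths Dhcr7 was the second most abundant of the 18, at 57.0 and 59.6 TPM, and Hsd17b7 the least, at 5.04 and 4.53 TPM. The exon union in GENCODE was 2.07 times the deposited length for Dhcr7 and 1.23 times for Acat2. It was 1.12 times for Hsd17b7 and 2.98 times for Tm7sf2, so both places depend on the gene model. Stard4, a soluble carrier of sterols and an SREBP target, stood at 37.6 and 31.4 CPM, a ratio of -0.26 (-0.48 to -0.04).

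**Figure D3:**
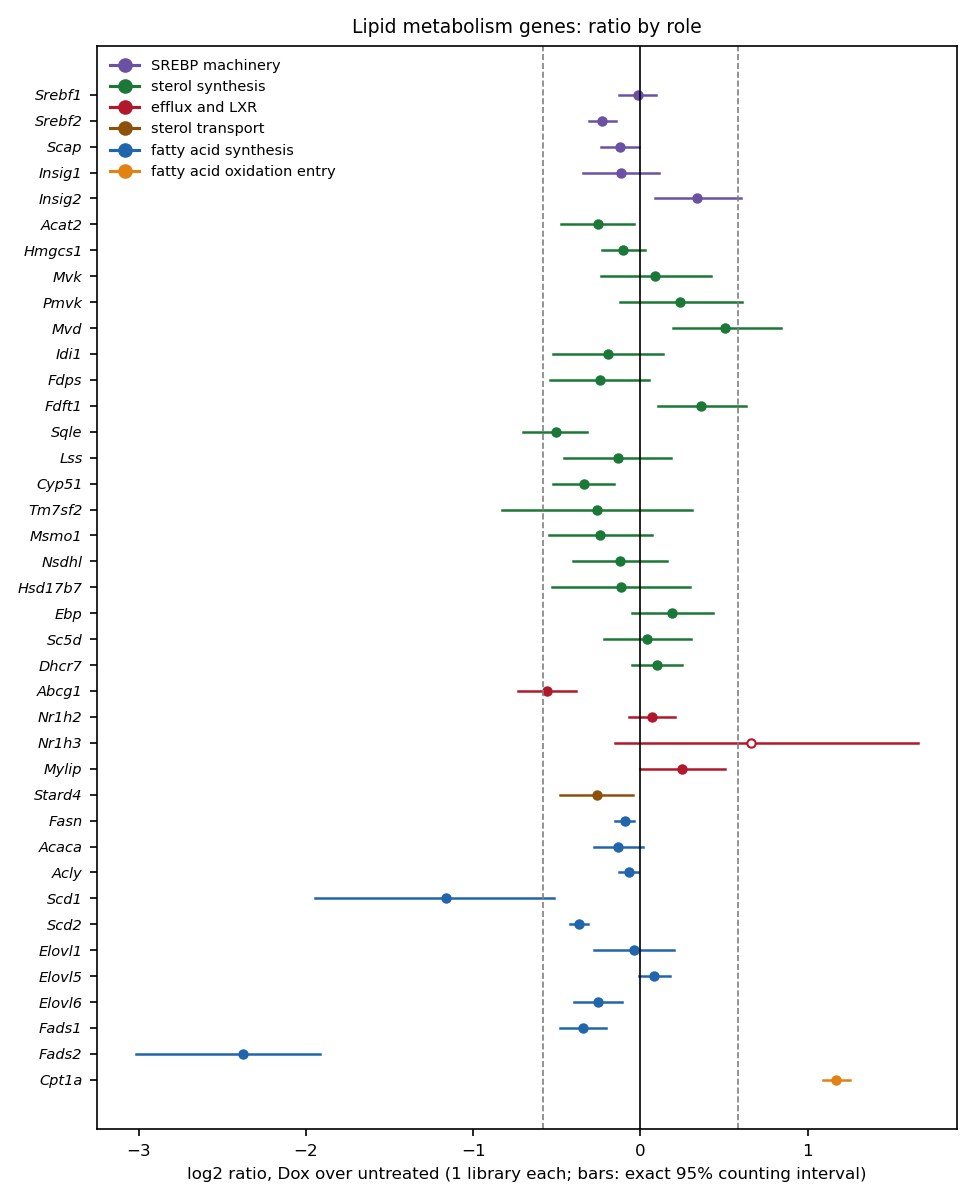
Log2 ratio of Dox over untreated (x axis) for 39 members by role (y axis), without Abca1, which had 0 and 2 counts. Points are ratios, bars exact 95% counting intervals, the open point a gene under 5 CPM in both libraries, and dashed lines 1.5-fold. The sterol synthesis genes scatter between -0.51 and 0.51 on both sides of 0, and 9 of the 10 fatty acid synthesis genes lie below 0. Of all 11498 genes with a mean of at least 1 CPM, which are not drawn, 5609 lie below 0.

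Efflux genes did not form a group with 1 direction. Abcg1, which exports cholesterol to lipoprotein particles, had 490 and 623 counts, or 64.5 and 43.8 CPM. It was 1.47-fold lower with Dox, with a ratio of -0.56 (-0.73 to -0.38), just under the size rule. It passed 1.5-fold with scaling by total counts, at -0.60, and with the Dox counts thinned to the untreated total, at -0.66. Abca1, the other main pump, had 0 untreated and 2 Dox counts, at or under the floor of 3 counts, so no ratio is given.

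Of the receptors, Nr1h2, the widely expressed LXR, stood at 84.6 and 88.8 CPM, a ratio of 0.07 (-0.07 to 0.21). Nr1h3, the LXR of macrophages and liver, had 15 and 46 counts, 1.97 and 3.23 CPM, and a ratio of 0.66 (-0.15 to 1.66). Per length, Nr1h2 was 44.4-fold above Nr1h3 without Dox and 28.5-fold with it. Nr1h3 overlaps Acp2, with 207 and 305 counts, over a short stretch from 91202812 to 91202829. The macrophage markers Adgre1 and Csf1r had 2 and 4 untreated and 5 and 8 Dox counts. Beside the mixed myeloid ratios given above, their part in the low Nr1h3 counts was not tested. Mylip, an LXR target that marks lipoprotein receptors for degradation, stood at 24.7 and 29.4 CPM, a ratio of 0.25 (-0.003 to 0.50).

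Synthesis and efflux were compared as groups by their medians. Sterol synthesis had a median of -0.12 over 18 genes, fatty acid synthesis one of -0.19 over 10 genes and efflux with its regulators one of 0.16 over the 4 genes past 1 CPM. The last was 0.07 over the 3 genes past 5 CPM and 0.25 over all 5. Sterol synthesis minus efflux was -0.28 and fatty acid synthesis minus efflux -0.35. The efflux median lies between Nr1h2 and Mylip, while the only pump that was measured well, Abcg1, was lower with Dox by more than any sterol synthesis gene. Summed counts, which Abcg1 and Nr1h2 dominate for efflux, gave -0.09 (-0.19 to 0.01) for efflux and -0.08 (-0.13 to -0.02) for sterol synthesis. For fatty acid synthesis they gave -0.17 (-0.20 to -0.14). Fatty acid synthesis was thus below efflux by medians and by sums, while sterol synthesis was below it by medians only. The intervals of both synthesis sums overlap that of efflux, and no separation of synthesis from efflux was shown.

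A further 105 genes of lipid metabolism, listed by pathway with earlier results of these data known, were read the same way. Of the 78 past 5 CPM, 3 stood 1.5-fold or more above the untreated library and 4 stood 1.5-fold or more below it, or 3.85% and 5.13%, against the 6.28% and 6.18% of all genes given above. The median of the 80 with a mean of at least 1 CPM was 0.02. None of the 14 genes of SREBP processing and the energy sensor AMPK, the 12 of isoprenoid branches or the 9 of glycerolipids and lipid droplets past 5 CPM reached 1.5-fold.

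The genes that did were spread over 3 pathways. In cholesterol transport, Arl4c, a small GTPase and LXR target, had 288 and 1273 counts, 37.9 and 89.5 CPM, and a ratio of 1.24 (1.05 to 1.43). Lipa, the lysosomal lipase that frees cholesterol from its esters, stood at 66.4 and 114 CPM, a ratio of 0.78 (0.64 to 0.93). Scarb1, a receptor for high-density lipoprotein, had 494 and 597 counts and a ratio of -0.63 (-0.81 to -0.46). Arl4c and Lipa were thus higher and Scarb1 lower, while the LXR targets Abcg1, at -0.56, and Lpcat3, at 0.39 (0.24 to 0.56), also differed in sign.

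In fatty acid supply, Acss2, which makes acetyl-CoA from acetate, stood at 12.9 and 23.3 CPM, a ratio of 0.84 (0.52 to 1.19). Acsl3, an acyl-CoA synthetase of lipid droplets, stood at 48.3 and 30.6 CPM, a ratio of -0.66 (-0.86 to -0.45). Acacb, the mitochondrial counterpart of Acaca, had 31 and 22 counts and stayed under 5 CPM, and it stood at 1.07 and 0.395 TPM against 19.7 and 17.5 TPM for Acaca.

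Other genes of fatty acid oxidation went in both directions, though more of them downwards. Of 17 past 5 CPM, 0 reached 1.5-fold upwards and 2 did so downwards, beside 6.28% and 6.18% of all genes, and with 17 genes these counts are too few to set apart from that background. The median ratio of the list was -0.08, with 7 genes above and 10 below 0, beside 5889 above and 5609 below over all genes with a mean of at least 1 CPM. The counting interval lay wholly above 0 for 1 gene and wholly below 0 for 7. These are 5.88% and 41.2% of the 17, against 26.9% and 23.8% of all genes, shares not matched for level. Cpt2, the inner mitochondrial partner of Cpt1a, stood at 11.7 and 7.66 CPM, a ratio of -0.60 (-1.03 to -0.19). Decr1, which handles polyunsaturated chains, stood at 29.9 and 17.6 CPM, a ratio of -0.76 (-1.03 to -0.50). Slc25a20, the carnitine carrier between both enzymes, was the 1 gene with an interval above 0. It stood at 31.4 and 41.2 CPM, a ratio of 0.39 (0.17 to 0.61). Acaa2, the most abundant gene of the list per length at 452 and 316 TPM, had one of -0.48 (-0.56 to -0.40). Over the shuttle as a whole, Cpt1a and Slc25a20 were higher and Cpt2 was lower, and Cpt1a over Cpt2 per length was 9.50-fold without Dox and 32.8-fold with it.

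**Figure D4:**
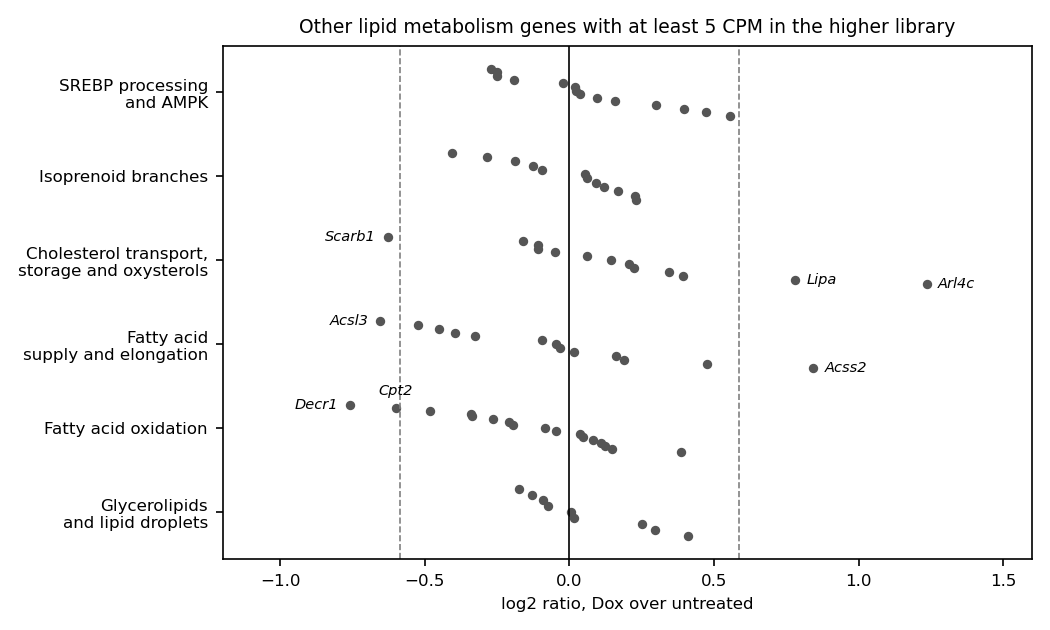
Log2 ratio of Dox over untreated (x axis) for the 78 other lipid metabolism genes past the 5 CPM minimum, 1 point per gene in rows by pathway (y axis), with dashed lines at 1.5-fold and names for the genes past them. Arl4c, Lipa and Acss2 lie to the right, Scarb1, Acsl3, Decr1 and Cpt2 to the left, and the other 71 between the lines.

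Beyond function, 6 of the 40 members (15.0%) lie on chromosome 19, which holds 3.65% of all genes past 5 CPM with a position and 5.64% of those past 2-fold. They include the neighbours Fads1 and Fads2 and the neighbours Scd1 and Scd2. The others are Cpt1a and Tm7sf2. Of the members, 9 overlap another counted gene in the RefSeq table, among them Elovl1 with the mitotic gene Cdc20, at 1511 and 3290 counts, and Tm7sf2 with Vps51, at 370 and 767 counts. Both overlaps are short, from 118432901 to 118432953 for Elovl1 and from 6067842 to 6067850 for Tm7sf2. Mir33, a microRNA gene inside Srebf2, was listed with 0 counts in both libraries.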

How the data were processed

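The deposited tables hold counts, that is unnormalized read numbers by gene, and a gene length. Per the submitters' processing notes, CASAVA 1.8.2, featureCounts and mm10 were used. The sources used here do not state the aligner, annotation, strand setting or how mice and runs were combined. The series table and the file of each library differed in 0 values.

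Symbols and positions came from RefSeq (GRCm38.p6) by Entrez number for 25275 of 27179 genes. Counts were scaled with TMM of edgeR 4.0.16 in R 4.3.3 (factors 1.02 untreated and 0.984 Dox). Log2 ratios used a prior count of 2, and TPM the deposited lengths. Over the members the exon union in GENCODE was between 0.997 and 3.48 times these lengths, so TPM comparisons between genes depend on the gene model. No test was run, since a group is 1 library. Intervals and the floor of 3 counts cover counting error only. A gene counted as called from 1.5-fold or 2-fold on, given 5 CPM in whichever library was higher, and list medians used genes with a mean of at least 1 CPM.

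Genes named were the members, other pathway genes past 1.5-fold and Ikzf1. Further names (Cpt1b, Cpt1c, Fads3, Acacb, Lpcat3, Slc25a20, Acaa2, overlapping genes and markers), and the promoters of Cpt1a and Fads2, were chosen after their values were seen. Members and lists were chosen with earlier results of these data known. Alternatives were DESeq2 1.42.0 size factors, total counts, other prior counts and CPM minimums, interval bounds and thinned Dox counts. On simulated data with 200 of 27179 genes changed, which hold counting error only, the 1.5-fold rule found 100% of the genes with a true change of 2-fold, 0% of those with 1.2-fold and 0.346% of the unchanged ones. The changed genes were drawn only from those with a mean of at least 2 times the 5 CPM minimum. Fads2 and Scd1 lie under that level, so these shares do not cover genes as scarce as they are. Python 3.11.15 was used for the remaining steps.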

Additional observations from a re-analysis of the deposited data

How the results depend on the processing

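No replicate check exists with 1 library per group, and no paired analysis was possible because each group has 1 library. With DESeq2 size factors, with total counts, with a prior count of 0.5 or 5, and with thinned Dox counts, Cpt1a stayed between 1.13 and 1.18, Fads2 between -2.43 and -2.18 and Scd1 between -1.36 and -1.08 on the log2 scale, and all 40 members lay within their counting intervals. The sign changed for Mvk, Sc5d and Nr1h2, all near 0. Of the scalings, total counts moved the median of all genes from 0.01 to -0.03.

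With a minimum of 1 CPM 2 members were at least 1.5-fold higher, with no minimum 3, as Nr1h3 and then Abca1 entered. With a minimum of 20 CPM 0 members were lower at either fold, as Fads2 and Scd1 are scarcer than that. With the interval bound nearest to 0 in place of the ratio, 1 member was lower at either fold. With a minimum of 1 CPM, 1 of the other pathway genes was at least 2-fold lower. The fatty acid synthesis median was -0.24 with total counts, -0.24 with thinned counts and -0.13 with members of at least 5 CPM, where its difference from efflux was -0.20. Scd1, at 40 and 32 counts, and Nr1h3 and Abca1 are the members that depth limits most.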
